A study of Mus musculus with 2 samples.

Results

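A set of 9 genes of the Pitx and LIM homeobox families with their LIM cofactors was followed in mouse embryonic facial prominence, the tissue of the future jaws, nose and palate, at embryonic day 13.5. They are the Pitx factor Pitx1, the LIM homeodomain factors Isl1, Lhx6, Lhx8, Lmx1a and Lmx1b, the LIM-domain-binding adaptors Ldb1 and Ldb2, and the LIM-only factor Lmo4. The list was drawn up by gene family, and all 9 genes were found by symbol among the 43346 gene rows of the deposited tables. Total RNA was sequenced in 2 libraries, replicate 1 and replicate 2, which form 1 group of healthy embryos, 13.5 days old, strain B6NCrl, with males and females pooled and no treatment in the labels. The labels give each library a biosample of its own but the same donor entry, so the spread between them may be partly technical. The design holds no contrast between conditions: levels are described as TPM (reads corrected for transcript length and scaled to a fixed library total), and the only difference that can be set out is that of replicate 1 over replicate 2, with no replicate check and no p-value. Means are given ± SD over the 2 libraries (n = 2), and each TPM value comes with a deposited credibility interval.

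LIM homeodomain proteins bind DNA through a homeodomain and bind partner proteins through a pair of zinc-finger LIM domains. The LIM domains are held by Ldb adaptors, which dimerise and so bring factors on different DNA sites together, while LIM-only proteins such as Lmo4 have no homeodomain and occupy the same adaptors. In the mouse jaw, Lhx6 and Lhx8 are known from the mesenchyme next to the oral epithelium, where their loss affects palate and teeth, and Pitx1, a homeodomain factor of the bicoid type with no LIM domains, is known from the lower jaw, the hindlimb and the pituitary.

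Lhx6 and Lhx8 are the closest jaw paralogs of the set, and their homeobox, the DNA that encodes the homeodomain, is shown first because every comparison of their levels depends on telling their reads apart. The 180 bases below come from the GENCODE M21 transcripts Lhx6-204 and Lhx8-201, the leading transcripts of the 2 genes, and were located in the translated reading frame by the conserved residues of the recognition helix. The coding strand is given, 5′ to 3′, and capitals mark the positions at which the 2 sequences differ. On GRCm38 the Lhx6 homeobox lies on the minus strand of chromosome 2 between 36091095 and 36091647, spread over exons 5 to 7, and that of Lhx8 on the minus strand of chromosome 3 between 154311682 and 154321668, over exons 6 to 8.
Lhx8: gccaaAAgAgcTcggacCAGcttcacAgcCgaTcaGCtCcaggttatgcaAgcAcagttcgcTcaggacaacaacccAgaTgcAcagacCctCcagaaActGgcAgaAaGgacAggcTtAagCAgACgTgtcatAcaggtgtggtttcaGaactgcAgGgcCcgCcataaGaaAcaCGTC
Lhx6: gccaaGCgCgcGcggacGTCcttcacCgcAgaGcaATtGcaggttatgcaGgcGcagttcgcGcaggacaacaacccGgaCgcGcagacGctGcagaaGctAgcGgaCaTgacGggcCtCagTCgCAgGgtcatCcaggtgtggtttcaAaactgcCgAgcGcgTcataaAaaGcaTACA
The homeoboxes were identical at 134 of 180 positions (74.4%) and differed at 46. The differing bases are scattered, and the longest run shared by the whole transcripts Lhx6-204 and Lhx8-201 was 14 bases. Among the other homeoboxes of the set, Lmx1a and Lmx1b were the most alike, with 82.8% identity and a longest shared run of 21 bases over the whole transcripts. Pitx1 was identical to the LIM homeodomain genes at 45.0% (Isl1 and Lhx8) to 53.9% (Lmx1a) of positions. The adaptor transcripts Ldb1-201 and Ldb2-201 shared at most 23 bases in a row. The sources used here do not give the read length.

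Of the 9 genes, 7 reached 1 TPM in both libraries, and their levels covered a wide range. This share stands beside 34.4% of all gene rows and 60.9% of protein-coding genes that reached the same level. Ldb1 and Lmo4 were the highest, Lhx8, Ldb2 and Pitx1 came next, Lhx6 and Isl1 were lower, and Lmx1a and Lmx1b were under 1 TPM in both libraries. The order was the same in both libraries but for Pitx1 and Ldb2, ranked 4 and 5 in replicate 1 and 5 and 4 in replicate 2. In whole tissue, fewer cells of a type and less RNA per cell cannot be told apart.

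**Figure D1:**
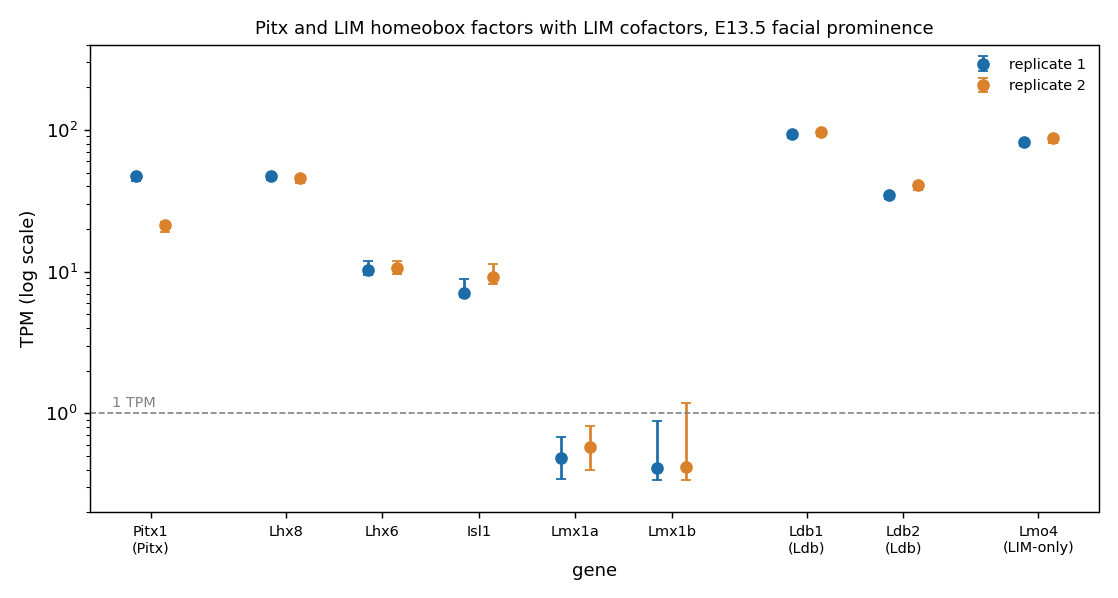
TPM of the 9 genes (log axis) in replicate 1 (blue) and replicate 2 (orange); points are the deposited TPM, bars the deposited credibility intervals, and the dashed line is 1 TPM. Pitx1 stands furthest apart between the libraries, at 47.0 and 21.2 TPM, and both Lmx1 genes lie below the dashed line.

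Pitx1 (ENSMUSG00000021506.7, chromosome 13, 55825051 to 55836192, minus strand) was the member whose level differed most between the libraries. It had 47.0 TPM in replicate 1, with an interval of 43.5 to 48.4, and 21.2 TPM in replicate 2, with an interval of 19.0 to 22.5. The intervals do not overlap, and Pitx1 lay above 85.0% of protein-coding genes in replicate 1 and above 71.2% in replicate 2. Its paralog Pitx3, known from lens and midbrain, was far lower at 1.88 and 1.81 TPM.

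Lhx8 (ENSMUSG00000096225.4, chromosome 3, 154306294 to 154330659, minus strand) was the dominant LIM homeodomain gene. It had 47.3 TPM in replicate 1, with an interval of 44.1 to 49.0, and 45.5 TPM in replicate 2, with an interval of 41.9 to 47.3. Alone it held 61.3% and 54.4% of the TPM summed over the 12 LIM homeodomain genes, a mean share of 57.8% ± 4.87. Lhx6 (ENSMUSG00000026890.15, chromosome 2, 36081953 to 36105408, minus strand) had 10.3 TPM, interval 9.51 to 11.9, in replicate 1 and 10.6 TPM, interval 9.66 to 11.96, in replicate 2. The 2 libraries of Lhx6 are nearly equal, with an SD of 0.170 TPM around a mean of 10.4. Lhx8 exceeded Lhx6 4.59-fold in replicate 1 and 4.32-fold in replicate 2, a mean log2 ratio of 2.15 ± 0.06, and their intervals were apart in both.

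Isl1 (ENSMUSG00000042258.9, chromosome 13, 116298281 to 116309689, minus strand), a factor of motor and sensory neurons, heart progenitors and the young mandibular arch, was the lowest of the expressed LIM homeodomain members. It had 7.07 TPM, interval 6.58 to 8.84, in replicate 1 and 9.11 TPM, interval 8.19 to 11.3, in replicate 2. Isl1 was below Lhx8 in both libraries, with a mean log2 ratio of -2.53 ± 0.30, and above its own paralog Isl2, a motor neuron factor at 2.47 and 3.09 TPM, by 1.54 ± 0.03. Isl1 and Lhx6 are neighbours in the order of levels. Their intervals were apart in replicate 1 but overlapped in replicate 2, so the order of these 2 genes was not separated in both libraries.

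Lmx1a (ENSMUSG00000026686.10, chromosome 1, 167689237 to 167848741, plus strand), known from the roof plate, the inner ear and midbrain dopamine neurons, had 0.48 TPM from 33 counts in replicate 1 and 0.58 TPM from 30 counts in replicate 2. Lmx1b (ENSMUSG00000038765.9, chromosome 2, 33560965 to 33640511, minus strand), known from the dorsal limb and the mesenchyme around the eye, had 0.41 TPM from 41 counts and 0.42 TPM from 32 counts. Their intervals overlapped in both libraries, and that of Lmx1b reached 0.878 TPM in replicate 1 and 1.18 TPM in replicate 2. Lhx8 was 115-fold above Lmx1b in replicate 1 and 108-fold above it in replicate 2. Both Lmx1 genes thus belonged to the poorly expressed part of the family, and reads were nevertheless present for each in both libraries.

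Across the 12 LIM homeodomain genes, 5 reached 1 TPM in both libraries: Lhx8, Lhx2, Lhx6, Isl1 and Isl2. Lhx2, known from forebrain, eye and hair follicle, was the only one of these 5 past a 1.5-fold difference between the libraries, at 7.52 TPM in replicate 1 and 13.7 TPM in replicate 2. Its count ratio sat at the threshold itself, with a log2 value of -0.59 that was -0.58 with a prior count of 5. The other genes were low. Lhx9 had 0.49 and 0.55 TPM, Lhx3, a pituitary and motor neuron factor, 0.11 and 0.10 TPM, and Lhx4 2 counts in replicate 1 and none in replicate 2. Lhx1 had 55 counts in replicate 1 and 3 in replicate 2, and Lhx5 had 18 and 3, so these 2 related neural factors were higher in replicate 1, at 0.71 and 0.34 TPM, than in replicate 2, at 0.09 and 0.07 TPM.

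**Figure D2:**
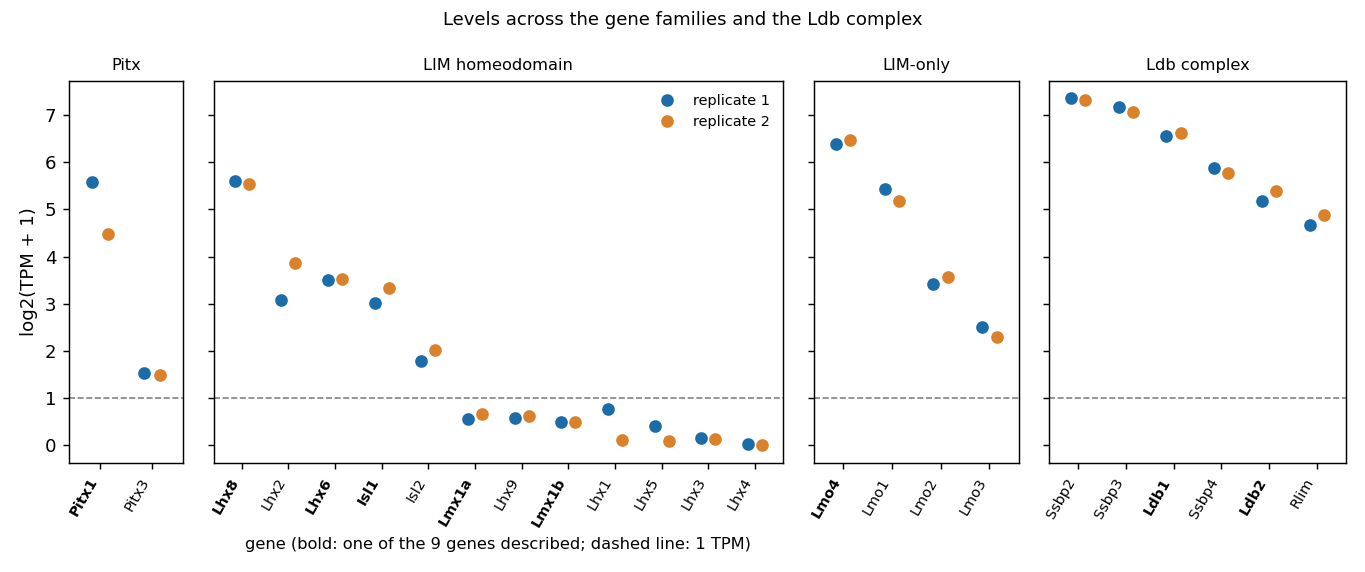
Levels as log2(TPM + 1) of genes of the Pitx, LIM homeodomain and LIM-only families and of the Ldb complex in replicate 1 (blue) and replicate 2 (orange); genes in bold are the 9 described, and the dashed line is 1 TPM. Lhx8, at 47.3 and 45.5 TPM, stands above the other 11 LIM homeodomain genes, and all 6 genes of the Ldb complex lie above 1 TPM.

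The adaptors and the LIM-only factor were the most abundant of the 9 genes. Ldb1 (ENSMUSG00000025223.10, chromosome 19, 46031570 to 46045214, minus strand) had 93.3 TPM, interval 87.8 to 94.2, in replicate 1 and 97.2 TPM, interval 90.5 to 98.0, in replicate 2. It lay above 92.8% of protein-coding genes in replicate 1 and above 92.9% in replicate 2. Ldb2 (ENSMUSG00000039706.7, chromosome 5, 44472132 to 44799680, minus strand) had 35.0 TPM, interval 32.5 to 35.7, in replicate 1 and 40.9 TPM, interval 37.5 to 41.4, in replicate 2. Those 2 intervals do not overlap, although the libraries differ by little. Ldb1 exceeded Ldb2 by a log2 ratio of 1.33 ± 0.12, 2.67-fold in replicate 1 and 2.38-fold in replicate 2. The protein-coding gene Pprc1 overlaps the start of Ldb1 on the opposite strand, at 29.2 and 25.9 TPM, and because the sources used here do not give the strandedness of the libraries, reads of that overlap may be shared.

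Lmo4 (ENSMUSG00000028266.13, chromosome 3, 144188530 to 144205220, minus strand) had 82.5 TPM, interval 77.4 to 84.3, in replicate 1 and 87.1 TPM, interval 81.1 to 89.3, in replicate 2. It held 59.3% and 63.6% of the TPM of the 4 LIM-only genes. Lmo1 followed at 42.1 and 35.1 TPM, then Lmo2, a factor of blood and endothelium, at 9.77 and 10.8 TPM, and Lmo3 at 4.68 and 3.90 TPM. Lmo4 was apart from each of these, by a log2 ratio of 1.14 ± 0.24 over Lmo1, 3.04 ± 0.05 over Lmo2 and 4.31 ± 0.24 over Lmo3. Lmo4 and Ldb1 were close, at a log2 ratio of -0.17 ± 0.01, yet Lmo4 was the lower in both libraries with intervals apart.

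Summed over genes, transcripts of LIM proteins and of their adaptors were of one order of magnitude. The 12 LIM homeodomain genes added up to 77.3 TPM in replicate 1 and 83.8 TPM in replicate 2, which was 0.602 and 0.607 of the sum of Ldb1 and Ldb2 at 128 and 138 TPM. The 4 LIM-only genes added up to 139 and 137 TPM, or 1.08 and 0.991 of the adaptor sum. LIM-only transcripts therefore outnumbered LIM homeodomain transcripts in both libraries. Of the other partners, Ssbp2, Ssbp3 and Ssbp4, single-stranded-DNA-binding proteins that stabilise Ldb adaptors, had 162 and 159, 143 and 132, and 57.8 and 53.8 TPM, and their sum was 2.83 and 2.50 of the adaptor sum. Rlim, a ubiquitin ligase that targets Ldb adaptors, had 24.6 and 28.4 TPM. These are sums of RNA, and protein was not measured.

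In all, 14 of 16 gene pairs within these families had intervals that were apart in both libraries with the same gene higher. The pairs were chosen with earlier results of these data known, and no share over other gene pairs was computed. The count therefore describes these pairs only and is not a trait of the families. The 2 pairs that were not apart in this way were Lmx1b and Lmx1a, which were not separated in either library, and Isl1 and Lhx6, which were separated in replicate 1 alone.

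Between the libraries, 1 of the 9 genes differed by more than 1.5-fold: Pitx1 was higher in replicate 1. Over all 17726 genes whose mean count reached 10, a filter that all 9 genes passed, 4.02% were higher in replicate 1 by that margin and 8.81% lower. Pitx1 had 2109 counts in replicate 1 and 742 in replicate 2. After scaling of the libraries by TMM (a trimmed mean of ratios over genes), the fold of replicate 1 over replicate 2 was 2.32, with a 95% counting interval of 2.14 to 2.53, and a log2 ratio of 1.21. The other 8 genes had log2 ratios of -0.15 (Lmx1a) to 0.15 (Lhx8), around a median over all genes of 0.02. The counting intervals of Lhx8, at 1.11 (1.03 to 1.19), and of Ldb2, at 0.918 (0.857 to 0.983), left out equal levels, while those of Isl1, Lhx6, Ldb1, Lmo4, Lmx1a and Lmx1b included them. When the libraries were scaled by their spike-in totals, the median over all genes moved to -0.54 and 2.49% of the genes past 1.5-fold were higher in replicate 1, beside 31.3% under TMM. Pitx1 then stayed positive at 0.66, and the ratios of the other 8 genes were negative, -0.69 (Lmx1a) to -0.41 (Lhx8), which is close to that median. The counting intervals cover counting error only, and not differences between embryos, dissections or library preparations. The counts may also hold PCR copies, which cannot be recognised without molecular identifiers.

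Other patterning factors of the jaws differed among themselves. Of 11 jaw patterning factors, all reaching 1 TPM in both libraries, 2 were more than 1.5-fold higher in replicate 1 and 1 was lower. The shares over all genes past the count filter were 4.02% and 8.81%. Hand2, which sets the distal, ventral part of the mandibular arch, had 6.56 TPM in replicate 1 and 2.29 TPM in replicate 2, a fold of 3.06 (2.38 to 3.98). Nkx2-3, a homeobox gene of pharyngeal and oral tissue, had 3.17 and 1.08 TPM, a fold of 3.15 (2.16 to 4.71). These 2 genes thus differed in the same direction as Pitx1, with intervals that overlap that of Pitx1.

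The other mandibular factors were closer to equal. Dlx5 had 40.8 and 33.9 TPM with a fold of 1.29 (1.17 to 1.42), and Dlx6, its neighbour and partner in lower jaw identity, had 3.79 and 3.54 TPM with an interval of 0.801 to 1.54 that includes equality. Barx1, a factor of molar-forming mesenchyme, had 10.9 and 11.6 TPM with a fold of 1.01 (0.849 to 1.20). Dlx1 had a fold of 0.923 (0.815 to 1.05), which also includes equality. Gsc had 16.5 and 14.6 TPM with a fold of 1.21 (1.03 to 1.41). Dlx2 and Msx1 were likewise higher in replicate 1, with folds of 1.36 (1.15 to 1.62) and 1.18 (1.15 to 1.21). In the opposite direction, Tbx22, a palate factor, had 1.87 and 3.22 TPM, a fold of 0.655 (0.511 to 0.837), and Pax9, a factor of palate and tooth mesenchyme, 10.1 and 13.6 TPM, a fold of 0.787 (0.713 to 0.869). Of 9 genes of arch signals and their receptors, 0 differed by more than 1.5-fold: the endothelin receptor gene Ednra had 43.9 and 43.3 TPM, Bmp4 51.8 and 47.4 TPM, and Fgf8, known as an inducer of Lhx6 and Lhx8 in mouse, 1.89 and 1.28 TPM from 35 and 20 counts. Under spike-in scaling Hand2 and Nkx2-3 stayed positive, at log2 ratios of 1.05 and 1.08, and that of Dlx5 turned to -0.19. With 1 library on each side, a difference in how the tissue was dissected, in the embryos pooled or in library preparation cannot be told apart.

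**Figure D3:**
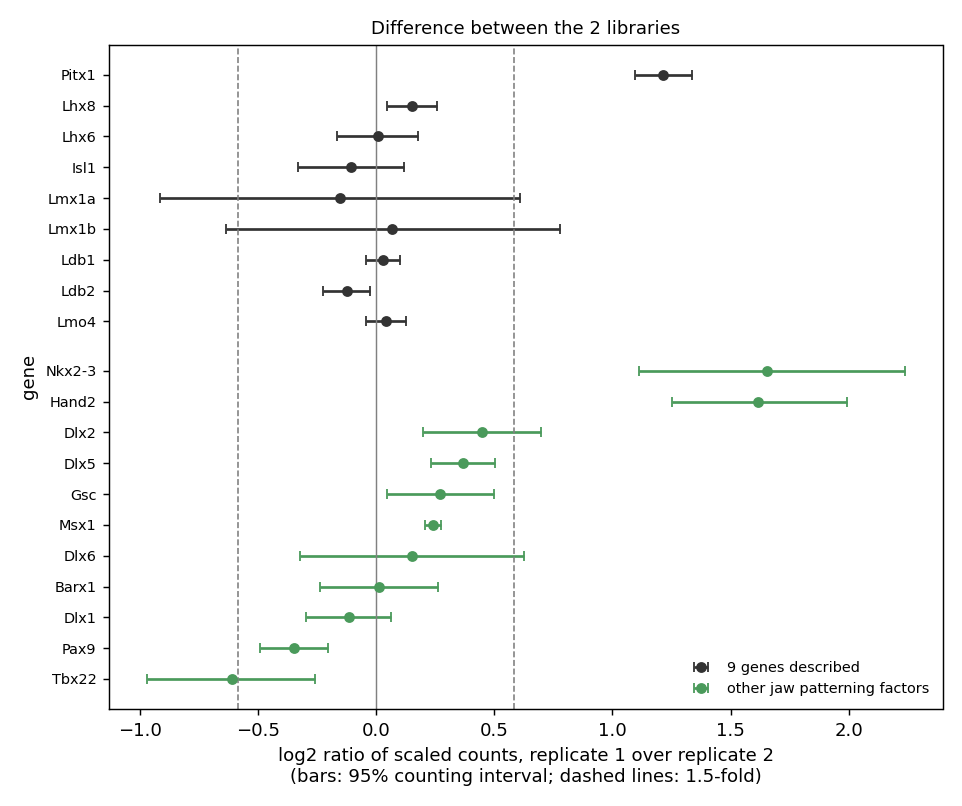
Log2 ratio of scaled counts, replicate 1 over replicate 2, for the 9 genes (black) and 11 other jaw patterning factors (green); bars are 95% counting intervals and dashed lines mark 1.5-fold. Pitx1 is the only black point outside the dashed lines, and Hand2 and Nkx2-3 lie on the same side, with intervals that overlap that of Pitx1.

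Transcripts were compared next, because TPM of a gene depends on which of its transcripts carry the reads. The same transcript led in both libraries for 8 of the 9 genes. Among the 6 members with more than 1 transcript and at least 1 TPM in both libraries this held for 5, where 89.4% of 10038 such genes did the same. Pitx1-201 carried 87.2% and 89.7% of the Pitx1 TPM. It had 41.0 TPM in replicate 1 and 19.1 TPM in replicate 2, and the other transcript, Pitx1-202, had 6 and 2.19 TPM, so both Pitx1 transcripts were higher in replicate 1. Lhx8-201 carried 86.2% and 80.9%, the rest being on 4 transcripts that are not in GENCODE M21. Isl1-201 carried 91.0% and 73.9%. The shorter Isl1-202, which starts 267 bases downstream, took 4.53% in replicate 1 and 24.6% in replicate 2, with wide intervals of 0.0169 to 1.06 and 0.984 to 3.41 TPM. The log2 ratio of Isl1 was -0.11 in counts and -0.36 in TPM. In TPM a read on a short transcript weighs more, but the scaling of the libraries differs as well. For Ldb2, with 1 transcript in the deposited table, the ratio was -0.12 in counts and -0.22 in TPM. The part of either in the shift of Isl1 was not tested.

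Lmo4 was the member whose leading transcript changed. Lmo4-201 and Lmo4-203, both annotated as protein-coding, have starts 2824 bases apart. Lmo4-201 took 46.2% and Lmo4-203 43.2% of the Lmo4 TPM in replicate 1, and 39.5% and 49.1% in replicate 2. Their intervals overlapped in each library, at 32.9 to 41.6 and 29.3 to 39.8 TPM in replicate 1 and at 28.4 to 37.4 and 35.9 to 47.0 TPM in replicate 2. The intervals therefore do not settle which of the 2 transcripts leads in either library, nor whether the leading one changed. A transcript with a retained intron, Lmo4-205, took 8.74% and 8.56%.

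Lhx6 likewise has starts in more than 1 place. Lhx6-204 led with 62.4% in replicate 1 and 40.0% in replicate 2, and Lhx6-202, which begins at the same base but includes an exon of 104 bases (chromosome 2, 36087368 to 36087471), took 0.485% and 23.2%. Summed by start, the transcripts beginning at that base held 62.9% and 63.3% of the Lhx6 TPM, a mean of 63.1% ± 0.305, and those beginning more than 1000 bases upstream 29.9% and 34.3%. Coding transcripts with the exon of 104 bases summed to 22.0% in replicate 1 and 44.3% in replicate 2. The intervals of Lhx6-204, 3.73 to 7.13 and 1.82 to 5.60 TPM, overlap between the libraries, as do those of Lhx6-202, so the transcript estimates do not separate the libraries in their use of the exon.

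The Ldb1 transcripts were divided among 3 starts. The transcripts at the first, led by Ldb1-206, held 37.7% and 44.5% of the Ldb1 TPM. Ldb1-201, starting 300 bases downstream, held 42.9% and 35.8%, and the transcripts beginning 5433 bases further on, led by Ldb1-205, 16.9% and 16.4%. Ldb2 has 1 transcript in the deposited table.

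**Figure D4:**
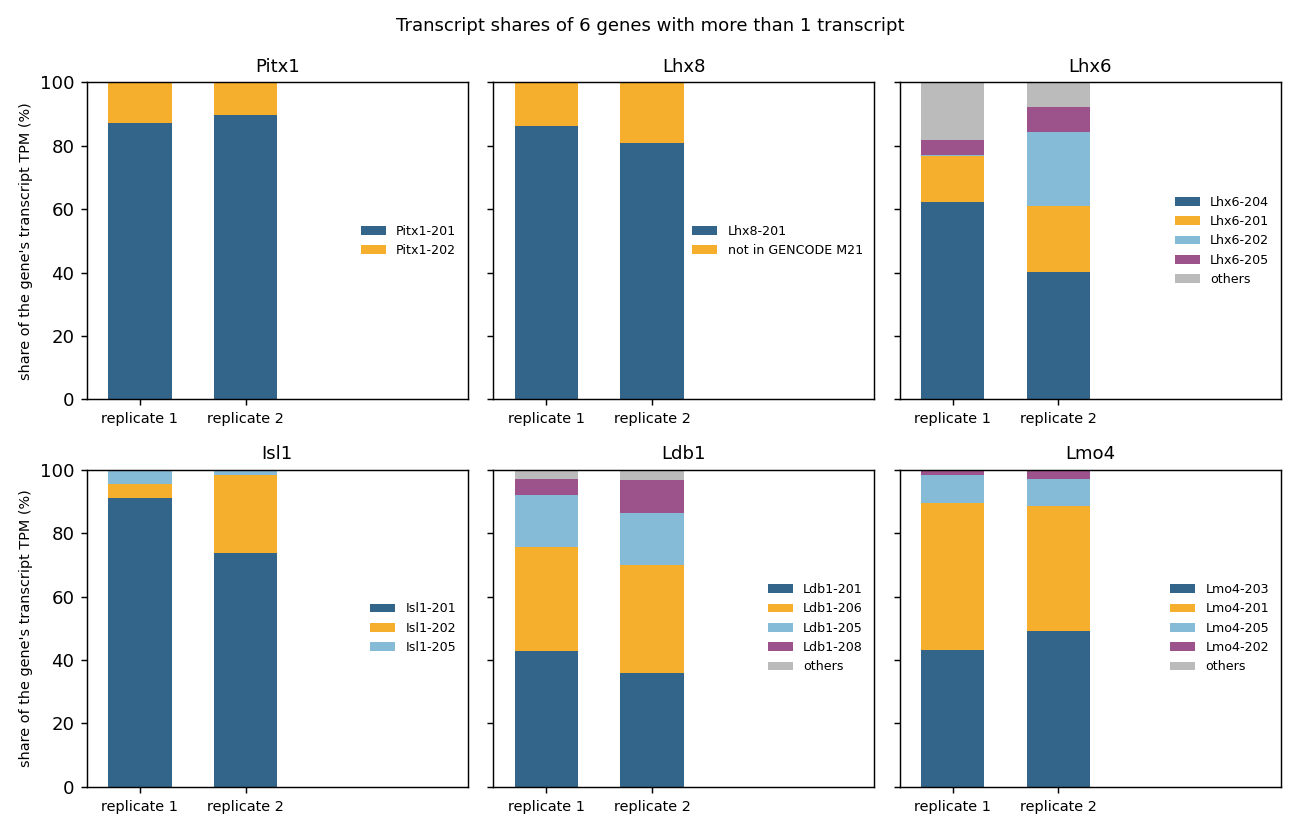
Share of each gene's transcript TPM (per cent) held by its transcripts in replicate 1 and replicate 2, for the 6 members with more than 1 transcript and 1 TPM or more in both libraries. Lmo4-201 and Lmo4-203 held 46.2% and 43.2% in replicate 1 and 39.5% and 49.1% in replicate 2. The share of Lhx6-204 was 62.4% in replicate 1 and 40.0% in replicate 2.

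The alternative starts of Lmo4 and Lhx6 are shown by the 250 bases in front of each, read 5′ to 3′ from RefSeq on GRCm38.p6, since these are the stretches by which the transcripts above differ in origin. Capitals mark matches to 4 short motifs that were searched on both strands: TAATTA, the core bound by many homeodomains, TAATCC, the core bound by bicoid-type factors such as Pitx1, CCAAT and TATAAA.
Lmo4 upstream start, chr3:144205256-144205505, minus strand: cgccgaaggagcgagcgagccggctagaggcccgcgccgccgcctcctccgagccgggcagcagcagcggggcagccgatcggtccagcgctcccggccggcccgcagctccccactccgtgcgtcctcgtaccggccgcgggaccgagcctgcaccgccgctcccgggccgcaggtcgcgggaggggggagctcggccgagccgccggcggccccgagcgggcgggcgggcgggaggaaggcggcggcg
Lmo4 downstream start, chr3:144202397-144202646, minus strand: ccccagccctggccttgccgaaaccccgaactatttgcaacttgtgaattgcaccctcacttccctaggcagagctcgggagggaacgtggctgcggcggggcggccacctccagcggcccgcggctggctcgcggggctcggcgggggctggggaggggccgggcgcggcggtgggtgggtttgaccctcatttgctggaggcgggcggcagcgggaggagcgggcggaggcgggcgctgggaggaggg
Lhx6 upstream start, chr2:36105409-36105658, minus strand: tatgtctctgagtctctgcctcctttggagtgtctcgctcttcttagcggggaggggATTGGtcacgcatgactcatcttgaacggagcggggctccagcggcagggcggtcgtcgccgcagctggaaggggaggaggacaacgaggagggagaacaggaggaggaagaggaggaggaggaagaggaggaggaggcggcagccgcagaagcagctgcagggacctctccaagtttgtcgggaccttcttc
Lhx6 downstream start, chr2:36104061-36104310, minus strand: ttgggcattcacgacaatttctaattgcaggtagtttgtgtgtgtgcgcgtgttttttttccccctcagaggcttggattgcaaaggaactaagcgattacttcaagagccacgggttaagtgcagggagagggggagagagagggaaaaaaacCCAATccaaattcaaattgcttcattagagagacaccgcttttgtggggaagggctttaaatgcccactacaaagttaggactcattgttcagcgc
The 2 Lmo4 stretches were rich in G and C, at 82.4% and 73.6%, beside a median of 52.4% over all RefSeq promoters, and held none of the 4 motifs. The upstream Lhx6 stretch had 61.6% G and C and the downstream one, which serves the more used start, 46.0%. The upstream stretch lies in front of the start of Lhx6-205 and Lhx6-203. Lhx6-201, with 14.4% and 21.1% of the Lhx6 TPM, begins further downstream, at 36105271, so this stretch does not stand for the whole upstream share. Each Lhx6 stretch held 1 CCAAT match, and the downstream window held in addition a TATAAA match on the opposite strand 3 bases after the start. Over all 13 promoter windows of the 7 members in the table (250 bases before to 50 after a start), TAATTA was found in 0 and TAATCC in 1, the window of Isl1, 177 bases before the start. Over all 32817 such windows of RefSeq, TAATTA was found in 5.30%, TAATCC in 7.06%, CCAAT in 37.4% and TATAAA in 13.6%. A match is a run of letters and not a measured binding site.

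The tissue of the label was checked by markers, and markers of other places where the 9 genes are active were measured beside them. Over all protein-coding genes, 60.9% reached 1 TPM in both libraries. All 6 facial mesenchyme genes, led by Msx1 at 440 and 399 TPM, and all 6 surface epithelium genes reached 1 TPM in both libraries, and in the mesenchyme list none differed by more than 1.5-fold. In the epithelium list 1 did, the simple-epithelium keratin gene Krt8, which was lower in replicate 1, at 31.6 and 72.2 TPM and a fold of 0.469 (0.436 to 0.505). Of 6 pituitary genes, which matter for Pitx1 and Isl1, only Pomc reached 1 TPM in both, at 3.28 and 2.12 TPM, and Tshb had 0 counts in both. Of 5 hindlimb genes, which matter for Pitx1, only Tbx4 was, at 2.32 and 2.28 TPM, and Hoxc11 had 0 counts in both. None of 6 cranial motor neuron genes (summed level 0.62 and 1.80 TPM) and none of 6 ventral forebrain genes (2.15 and 2.79 TPM, Gsx2 at 0 counts in both), which matter for Isl1, Isl2, Lhx6 and Lhx8, reached 1 TPM in both libraries. Of 6 roof plate and otic genes, which matter for Lmx1a, only Otx2 did so, at 6.25 and 9.85 TPM, and Wnt1 had 0 counts in both. A gene at 0 counts could still be present at up to 0.105 CPM (counts scaled to 1000000 over gene rows) in replicate 1 and up to 0.132 CPM in replicate 2, the equivalent of 3 counts.

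Marker genes differed between the libraries in both directions. Over all genes past the count filter, 4.02% were more than 1.5-fold higher in replicate 1 and 8.81% lower. Pomc, Gad1 (ventral forebrain) and Gbx2 (roof plate and otic) were more than 1.5-fold higher in replicate 1, as Pitx1 was. Their folds were 1.66 (1.06 to 2.64), 1.66 (1.06 to 2.66) and 5.23 (2.02 to 17.2), Gbx2 from 32 and 5 counts. Ttr, which stands on both the roof plate and otic list and the liver list, was lower by that margin. The motor neuron genes Slc18a3 and Tbx20 were also lower by that margin. The heart and liver lists differed in the direction opposite to Pitx1. All 7 heart genes and all 7 liver genes were lower in replicate 1, with summed levels of 11.8 and 14.97 TPM in replicate 1 and of 79.0 and 318 TPM in replicate 2. Of the heart genes Myl2 had 0 counts in replicate 1 and 24.6 TPM in replicate 2. Its deposited interval in replicate 1, 0.712 to 3.25 TPM, leaves out 0. Of the liver genes Fgb had 0 counts in replicate 1 and 4.63 TPM in replicate 2. The 5 genes of the mesenchyme around the eye, all at 1 TPM or more, differed among themselves. Of these, Foxc1 alone was more than 1.5-fold lower in replicate 1, at 1.80 and 3.23 TPM. Eya2 (16.6 and 26.6 TPM) and Col8a1 (26.1 and 33.4 TPM) were lower by less. Their count folds were 0.816 (0.738 to 0.902) and 0.837 (0.794 to 0.883). Tfap2b, at 78.6 and 71.3 TPM, was higher in replicate 1, with a fold of 1.17 (1.11 to 1.23). The counting interval of Foxc2, 0.848 to 1.44, included equality. Of 8 cranial sensory neuron genes, 4 reached 1 TPM in both libraries, 2 were higher in replicate 1 and 3 lower. Among 6 erythroid genes, all reaching 1 TPM, 3 were lower in replicate 1, and among 5 bone genes, all reaching 1 TPM, Ibsp was higher and Spp1 lower. The 7 branchiomeric muscle, 6 endothelial and 5 cartilage genes and 3 of 4 dental epithelium genes reached 1 TPM in both libraries, and 0 of these genes differed by more than 1.5-fold. The part of these tissues in the values of Pitx1, Isl1 and Lhx2 was not tested. With 2 libraries no likeness of pattern between genes can be measured.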

How the data were processed

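The deposited gene and transcript tables of both libraries were used, and all values refer to the 2 libraries of 1 group assigned from the labels. Per the file headers, the authors gave expected counts (estimated counts per gene or transcript, not always whole). The authors' TPM values correct for length and add up to 1000000 over every row, so spike-ins are part of the total. The deposited FPKM values, scaled by length and library total, served as an alternative. The deposited bounds of the credibility intervals are a signal in TPM or FPKM units, and their level is not named in the headers. The deposited notes name assembly mm10 and GENCODE M4. The aligner, the quantification program and the strandedness are not given in the sources used here. Replicate 1 held 30451502 and replicate 2 23777465 expected counts, of which 28542452 and 22719352 were on 43346 gene rows, and spike-ins took 6.27% and 4.45%. Spike-in and unnamed rows (0.000171% and 0.000151%) stayed out of library sizes.

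Identifiers without version were looked up in GENCODE M21 (GRCm38, which mm10 also names) for symbols, coordinates and transcripts, with 42462 of 43346 gene rows and 37 of 41 member transcripts matched. Promoters came from RefSeq on GRCm38.p6, with 7 of 9 members matched. For ratios, expected counts were rounded to whole numbers, scaled with TMM in edgeR 4.0.16 (R 4.3.3), with a prior count of 1, for genes with a mean count of 10 or more. Exact Clopper-Pearson 95% intervals came from scipy 1.17.1. Pairs were called apart where deposited intervals did not overlap in either library and the same gene was higher. No p-value was computed. The ratio step was tested on simulated data. The alternatives, among them size factors of DESeq2 1.42.0, are in the closing section. Named genes are the 9 members, the genes of the Pitx, LIM homeobox, LIM-only and Ldb complex lists and of the pairs, the 4 highest genes of each other list, and list genes at 0 counts. Others (Hand2, Nkx2-3, Tbx22, Pax9, Dlx2, Dlx6, Barx1, Fgf8, Foxc1, Foxc2, Fgb, Spp1 and Pprc1) were named after their values were seen. Some genes of these lists are not reported here. The members, lists and pairs were chosen with earlier results of these data known.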

Additional observations from a re-analysis of the deposited data

How the results depend on the processing

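The number of members at 1 TPM or more in both libraries was 7 under each alternative (thresholds of 0.5 and 2 TPM, TPM over gene rows only, posterior mean TPM, FPKM, and without either replicate). The number of pairs apart was 12 to 15 under its alternatives, 14 without replicate 1 and 15 without replicate 2. The number of members past 1.5-fold was 1 under each alternative but scaling by spike-in totals, where it was 4 because the median of all genes moved to -0.54. The number of members with the same leading transcript was 8 with posterior mean TPM and with expected counts, although with expected counts the exception was Ldb1 and not Lmo4. Of the pairs called apart, the log2 ratio of Ssbp3 to Ssbp2 changed sign, at -0.23 in TPM and 0.37 in expected counts, which are not corrected for length. That of Lmx1b to Lmx1a, a pair not called apart, was -0.35 in TPM and 0.20 in expected counts. Ratios between the libraries that lay near 0 also changed sign. In TPM they were -0.03 for Lhx6, -0.03 for Lmx1b, -0.06 for Ldb1 and -0.08 for Lmo4, and under the total of gene rows -0.03 for Lhx6 and -0.01 for Ldb1. Under spike-in totals those of Lhx6, Lhx8, Lmx1b, Ldb1 and Lmo4 turned negative, at -0.55, -0.41, -0.48, -0.53 and -0.52. The direction of these 5 genes between the libraries therefore depends on the scaling, and that of Pitx1 did not change under any alternative run. TPM over gene rows raised the levels of 6 members by more than their SD. Values rest on 1 biosample per library, Lmx1a and Lmx1b on 30 to 41 counts each, and transcript shares on estimates with wide intervals. No paired analysis was possible because the labels give 1 group.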

Other observations

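The long non-coding gene AI606473 lies head to head with Lhx8, on the plus strand of chromosome 3 from 154330821 to 154334254, and its GENCODE start is 162 bases from that of Lhx8. It had 40.9 TPM from 1262 counts in replicate 1 and 37.8 TPM from 871 counts in replicate 2, beside 47.3 and 45.5 TPM for Lhx8. The annotated genes do not overlap. AI606473 was named after its values were seen.

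Lmx1b also has a non-coding neighbour on the opposite strand, C130021I20Rik (chromosome 2, 33641193 to 33646354), which was likewise named after its values were seen. This neighbour lies 682 bases from the GENCODE start of Lmx1b. RefSeq puts the Lmx1b start nearer to it, at 33641098, which is 587 bases from the start of Lmx1b-201. C130021I20Rik had 2.96 TPM from 158 counts in replicate 1 and 3.72 TPM from 150 counts in replicate 2, above Lmx1b itself at 0.41 and 0.42 TPM. The non-coding gene Gm28760, which lies within Pitx1 on the same strand and was also named after its values were seen, had 1.87 and 0.70 TPM from 25.2 and 7.19 counts.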
